A study of Mus musculus with 8 samples.

Results

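Both kinds of knockout made at the Evx1 locus, removal of Evx1as and knockout of EVX1, were set together against wild-type cells, to find the transcripts that the edited lines share. A gene was taken as shared when all 6 knockout libraries lay above, or all lay below, both wild-type (WT) libraries. It also had to reach 1 FPKM in at least 2 of the 8 libraries. FPKM is the number of sequenced fragments scaled to transcript length and to library size. Of 13188 genes that reached this level, among 38610 symbols with values, 2955 met the rule. All 6 knockout libraries were above both WT libraries for 1507 genes (11.4% of those tested) and below both for 1448 (11%).

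RNA came from CJ9 cells, a mouse embryonic stem cell line of strain 129S4/SvJae, on day 4 after leukemia inhibitory factor (LIF) was withdrawn. LIF is the cytokine that keeps these cells undifferentiated. There were 2 libraries of unedited WT cells, 3 with the genotype Evx1as KO and 3 labelled EVX1 KO, and the series title gives CRISPR as the method. Strain, cell line, medium and day were the same in all 8. Whether a group is 1 clone or several, where each edit lies, and whether WT cells went through mock editing were not given in the sources used here. Nothing in the labels says that replicates are separate cultures, so the spread between them may be technical.

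EVX1 protein is a homeobox transcription factor made in the primitive streak, the region of the embryo where mesoderm and endoderm form, and Evx1as is a long noncoding RNA read from the opposite strand of the same locus. Stem cells without LIF pass through a primed, epiblast-like state before they enter streak, mesoderm and endoderm programmes. The p53 pathway, several of whose targets are described here, halts or kills cells after DNA damage, and Cdkn2a and its relatives slow the cell cycle.

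Neither targeted transcript was among the shared genes. Evx1as (5730457N03Rik) stood at 5.36 and 6.75 FPKM in the WT libraries, 0.0549, 0.104 and 0.0485 in Evx1as KO and 5.01, 8.81 and 7.39 in the libraries labelled EVX1 KO. For Evx1 the levels were 22.0 and 31.2 FPKM in the WT libraries, 2.45, 3.84 and 0.541 in Evx1as KO and 26.3, 20.8 and 31.7 in the libraries labelled EVX1 KO. Both transcripts were low in Evx1as KO and overlapped WT in the libraries labelled EVX1 KO, so the transcript level does not check the EVX1 label. Their deposited spans overlap on chromosome 6, and reads of a gene and its antisense partner can be told apart only if the counting used strand, a setting not given in the sources used here.

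Summed FPKM was 531523 to 587798 per library, and 12244 to 12442 genes reached 1 FPKM. Read counts are not given, so absolute depth is unknown. Steps between low values put the other libraries at 0.863 to 1.19 times the depth of WT replicate 1. Some libraries stood apart on single chromosomes. The median centred level of chromosome 8 genes was -0.38 and -0.30 (log2) in EVX1 KO replicates 1 and 2 and 0.085 in EVX1 KO replicate 3. That of chromosome 14 genes was -0.36 and -0.34 in Evx1as KO replicates 2 and 3 and 0.13 in Evx1as KO replicate 1.

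Most shared differences were small. The gap, taken as the distance on the log2(FPKM + 1) scale between the nearest knockout library and the nearest WT library, had a median of 0.10 over the 2955 genes. It was wider than the distance between the WT libraries for 1424 of them. Only 25 genes above and 39 below had a gap of 1.5-fold or more, and 3 and 7 had one of 2-fold or more. At the edge of the rule, 9430020K01Rik was just above WT, with 6.30 and 5.43 FPKM in WT and 6.30 to 9.67 in the knockout libraries, followed by Helb and Fbxo18. Ncapg2 fell just outside, with 4.02 and 3.80 in WT and 4.02 to 4.67 in the knockouts, followed by Pus7 and Zfp617. On the lower side Ppp1r37 was just inside, with 13.3 and 13.4 in WT and 10.3 to 13.3 in the knockouts, followed by Vps33b and Helq. Erp29 was just outside, with 85.5 and 79.5 and 69.5 to 79.5, followed by Rrp12 and Nsa2.

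The mean of both knockout groups was compared with WT in limma over all 13188 genes, with each edit given equal weight. It called 827 genes higher (6.27%) and 741 lower (5.62%) at adjusted p under 0.05, of which 660 and 611 were shared genes. The rule used the same values, so these calls are no independent support for it. They rest on both WT libraries: without WT replicate 1 the model called 10 genes higher and 2 lower, and without WT replicate 2 it called 55 and 49. Without 1 of the knockout libraries it called 381 to 1006 higher and 357 to 875 lower, the lowest without Evx1as KO replicate 3. When the 6 knockout libraries were treated as 1 group, so that the difference between the edits counted as spread, 6 genes were called higher and 8 lower. The 6 were Otx2, Fgf5, Scd1, Zfp608, Terf1 and a second line of Ywhaz. The 8 included Cdkn2a, Mdm2, Igfbp7, Nkx2-9, Ly6h, Ctsd and a line that overlaps H19.

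The contrast between the edits uses no WT library, but the rule chose genes with both edits on one side of WT, so the counts and medians that follow describe the chosen genes and are no support for the rule. EVX1 KO and Evx1as KO differed in 2903 of all tested genes (22.0%) by limma and in 496 of the 2955 shared genes (16.8%). Of these 496, Evx1as KO was the farther from WT in 450 and EVX1 KO in 46. The median difference from WT among the genes above was 0.45 on the log2 scale for Evx1as KO and 0.34 for EVX1 KO, against 0.02 in each for all tested genes. Among the genes below, the medians were -0.45 and -0.35. The comparisons of each edit with WT share the WT libraries. The count of shared genes that differed between the edits was 197 to 529 with 1 knockout library left out, the lowest without Evx1as KO replicate 3. It was 774 and 769 of the larger sets of genes that met the rule without WT replicate 1 and without WT replicate 2.

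Shared genes above WT had a median level of 8.25 FPKM over the 8 libraries, those below 13.4 and all tested genes 8.29. Their longest transcripts, as listed by GENCODE, had a median length of 3962.5 nucleotides above, 3024.5 below and 3351 over all tested genes, with lengths found for 88.7%, 87.8% and 85.4%. FPKM is divided by transcript length, and the part of length in the differences was not tested.

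The widest gaps above WT belonged to a transcript of Ywhaz, to regulators of the primed epiblast and to a fatty acid desaturase. The second Ywhaz line, a variant of the gene for the 14-3-3 zeta adaptor protein listed by its RefSeq identifier, stood at 13.5 and 13.8 FPKM in the WT libraries, 51.3, 53.3 and 55.5 in Evx1as KO and 46.4, 67.7 and 61.8 in the libraries labelled EVX1 KO. The first Ywhaz line went the other way, with 164 and 179 in WT and 141 to 150.3 in the knockouts. Both lines cover the same locus, so how reads were divided between them is uncertain. Otx2, a homeobox factor of the epiblast and later forebrain, stood at 12.3 and 9.53 FPKM in the WT libraries, 41.7, 31.3 and 44.7 in Evx1as KO and 39.0, 35.6 and 32.8 in the libraries labelled EVX1 KO. The lowest knockout library, Evx1as KO replicate 2, was far above both WT libraries. Fgf5, the growth factor that marks the post-implantation epiblast, stood at 13.5 and 13.6 FPKM in the WT libraries, 32.6, 31.7 and 31.2 in Evx1as KO and 35.2, 35.8 and 33.8 in the libraries labelled EVX1 KO. The 3 groups were tight, and the knockout libraries all lay between 31.2 and 35.8.

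Zic2, a zinc finger factor of epiblast and neural plate, stood at 22.3 and 24.5 FPKM in the WT libraries, 80.3, 64.2 and 77.5 in Evx1as KO and 48.8, 46.7 and 46.2 in the libraries labelled EVX1 KO. Scd1, which introduces the double bond into fatty acids, stood at 11.1 and 12.1 FPKM in the WT libraries, 29.7, 25.2 and 30.5 in Evx1as KO and 24.5, 23.1 and 25.2 in the libraries labelled EVX1 KO. Nanog, a core pluripotency factor, stood at 25 and 49.3 FPKM in the WT libraries, 125, 86.4 and 105 in Evx1as KO and 128, 85.6 and 81.6 in the libraries labelled EVX1 KO. The WT libraries were far apart for Nanog, yet the lowest knockout library was above the higher of them. By limma, the mean of both edits rose by 1.69 ± 0.15 (SE, log2 scale) for Otx2, 1.24 ± 0.072 for Fgf5, 1.30 ± 0.10 for Zic2, 1.12 ± 0.095 for Scd1 and 1.49 ± 0.26 for Nanog. The adjusted p-values were 0.00193, 0.000444, 0.0014, 0.00193 and 0.0158 by limma, and 0.000669 for the second Ywhaz line, which rose by 1.95 ± 0.13. The Nanog call was lost without WT replicate 1, and it was also lost when genes of all levels were tested.

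The other widely separated genes above WT were of mixed function. Pck2, the mitochondrial enzyme that makes phosphoenolpyruvate, had 4.75 and 4.58 FPKM in WT and 8.99 to 14.5 in the knockouts. Sfrp1, a secreted Wnt antagonist, had 0.897 and 0.861 in WT and 2.34 to 12.0 in the knockouts, lowest in EVX1 KO replicate 3. Snhg6, a host gene of small nucleolar RNA, had 2.26 and 2.33 in WT and 4.53 to 10.6 in the knockouts. Both Snhg6 and Gstt1, a glutathione transferase at 2.72 and 2.53 in WT and 5.06 to 12.7 in the knockouts, were higher in every Evx1as KO library than in any library labelled EVX1 KO. Zic5, the telomere-binding factor Terf1, the zinc finger gene Zfp608, the microtubule-associated gene Eml1, Wdr86 and the class II antigen gene H2-Ab1 were at 6.24 and 9.32, 23.2 and 29.9, 5.93 and 6.03, 1.11 and 1.25, 0.807 and 0.747 and 0.895 and 0.752 FPKM in WT. In the knockouts they ranged over 15.1 to 29.8, 45.6 to 57.8, 10.03 to 12.5, 2.64 to 5.46, 2.20 to 8.19 and 1.96 to 2.89. Sfrp1, Wdr86 and H2-Ab1 were under 1 FPKM in both WT libraries, so the filter kept them only through their knockout values. All of the genes named in this paragraph rose by limma over all libraries, and Snhg6 alone was still called without WT replicate 1. Without WT replicate 2 the calls of Pck2, Sfrp1, Eml1, Wdr86 and H2-Ab1 were lost.

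**Figure D1:**
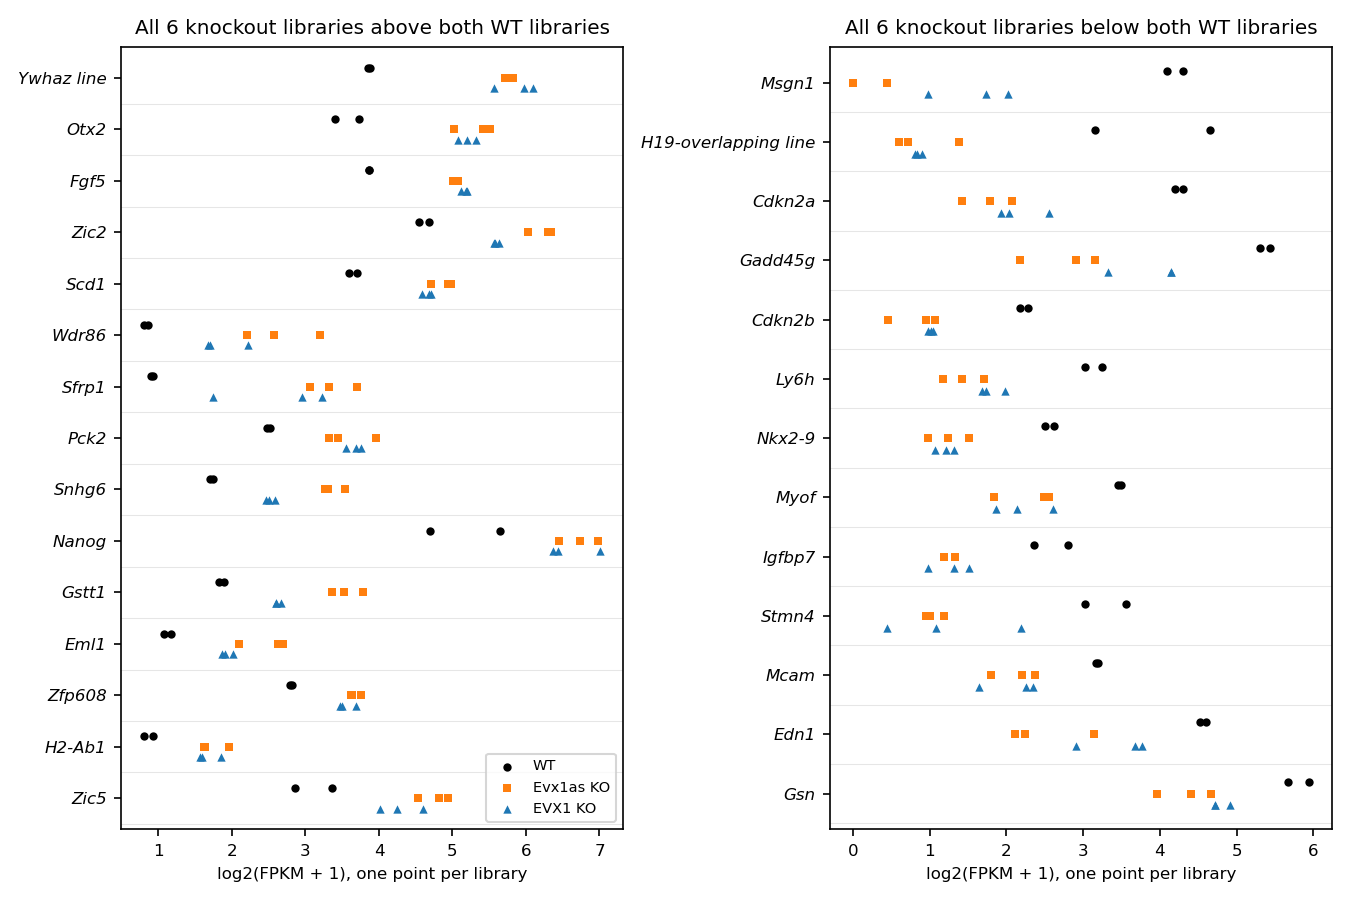
Levels of the 15 genes above WT (left) and of 13 of the 15 below (right) with the widest gaps among called shared genes, as log2(FPKM + 1) on the x axis with 1 point per library: WT black circles, Evx1as KO orange squares, EVX1 KO blue triangles. In each row the 2 WT points lie to one side of all 6 knockout points. For Snhg6 and Gstt1 the blue points lie between black and orange.

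On the lower side the widest gap was that of Msgn1, a transcription factor of presomitic mesoderm, at 18.7 and 16.1 FPKM in the WT libraries, 0, 0.367 and 0 in Evx1as KO and 2.32, 3.07 and 0.969 in the libraries labelled EVX1 KO. Msgn1 was listed at 0 in Evx1as KO replicates 1 and 3. The next was a line listed under a GenBank identifier on chromosome 7, 149761435 to 149764019 in the deposited table's own coordinates. That span overlaps the line named H19, 149761436 to 149764051, which was listed at no more than 0.314 FPKM in any library. The overlapping line stood at 7.88 and 24.2 FPKM in the WT libraries, 0.651, 0.520 and 1.61 in Evx1as KO and 0.864, 0.758 and 0.778 in the libraries labelled EVX1 KO. The WT libraries were 1.5 apart on the log2(FPKM + 1) scale, against a gap of 1.76 to the knockouts, and the division of reads between the lines is uncertain.

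Cdkn2a, whose products p16Ink4a and p19Arf restrain cyclin-dependent kinases and the p53 antagonist Mdm2, stood at 18.6 and 17.4 FPKM in the WT libraries, 1.68, 2.46 and 3.19 in Evx1as KO and 2.82, 3.10 and 4.88 in the libraries labelled EVX1 KO. The neighbouring inhibitor Cdkn2b stood at 3.52 and 3.86 FPKM in the WT libraries, 0.372, 0.936 and 1.10 in Evx1as KO and 1.06, 0.974 and 1.02 in the libraries labelled EVX1 KO. In both genes the highest knockout library was far under the lower WT library, and Cdkn2a and Cdkn2b lie next to each other on chromosome 4. By limma Cdkn2a fell by 2.28 ± 0.20 (SE, log2 scale; adjusted p 0.00193) and Cdkn2b by 1.31 ± 0.18 (adjusted p 0.0094). Without WT replicate 1 neither was called, and Cdkn2b was also not called without WT replicate 2.

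Gadd45g, a stress and differentiation gene, stood at 38.5 and 42.4 FPKM in the WT libraries, 3.51, 7.88 and 6.51 in Evx1as KO and 8.97, 16.6 and 16.7 in the libraries labelled EVX1 KO. Edn1, the vasoconstrictor peptide endothelin, stood at 22.0 and 23.2 FPKM in the WT libraries, 3.75, 7.80 and 3.31 in Evx1as KO and 6.51, 11.8 and 12.6 in the libraries labelled EVX1 KO. For Gadd45g and Edn1 the libraries labelled EVX1 KO lay mostly between Evx1as KO and WT, and the edits differed by 1.12 and 0.95 (log2; limma adjusted p 0.0225 and 0.0472). Gsn, the actin-severing protein gelsolin, had 60.6 and 49.8 FPKM in WT and 14.6 to 29.2 in the knockouts. Nkx2-9, a homeobox factor of the ventral neural tube, had 5.17 and 4.65 in WT and 0.978 to 1.85 in the knockouts, and Ctsd, a lysosomal protease, 326 and 266 and 159.6 to 183. The surface protein genes Ly6h and Mcam had 8.48 and 7.10 and 8.18 and 8.02 in WT and 1.25 to 2.96 and 2.12 to 4.18 in the knockouts. The secreted Igfbp7 had 4.13 and 5.98 in WT and 0.978 to 1.85 in the knockouts, the membrane repair gene Myof 10.2 and 9.97 and 2.58 to 5.09, and the microtubule regulator Stmn4 10.8 and 7.14 and 0.365 to 3.54. All 11 genes of this paragraph and the one on Msgn1, without the overlapping line, fell by limma over all libraries. Of these, Msgn1 alone was still called without WT replicate 1.

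Genes of 25 functional lists, 5 lists of cell type markers and 4 further lists were then counted by the rule. For the limma counts given with them, 6.27% of all tested genes rose and 5.62% fell in the mean of both edits. Between the edits 22.0% differed. Lists of p53 targets, actin, matrix, TGF-beta and immediate early genes held shared genes below WT and none above. Lists of cholesterol synthesis, DNA repair, proliferation, glycolysis and small nucleolar RNA host genes held them above WT and none below. These were not the only one-sided lists. Among others, the streak, mesoderm, endoderm, Wnt, Hox, germ cell, fibroblast and trophoblast lists held shared genes below WT alone. The interferon and antigen presentation lists held them above WT alone. The plot of shares by list sets most of the lists against the background of 11.4% and 11%. It leaves out the lists of cell type markers, those of fibroblast and trophoblast among them. The lists with the fewest tested genes, such as that of Hox genes, are left out as well. The 4 further lists, those of cyclin-dependent kinase inhibitors, smooth muscle and actin genes, TGF-beta ligands and targets, and cytosolic ribosomal proteins, were drawn up after values of these libraries had been seen.

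**Figure D2:**
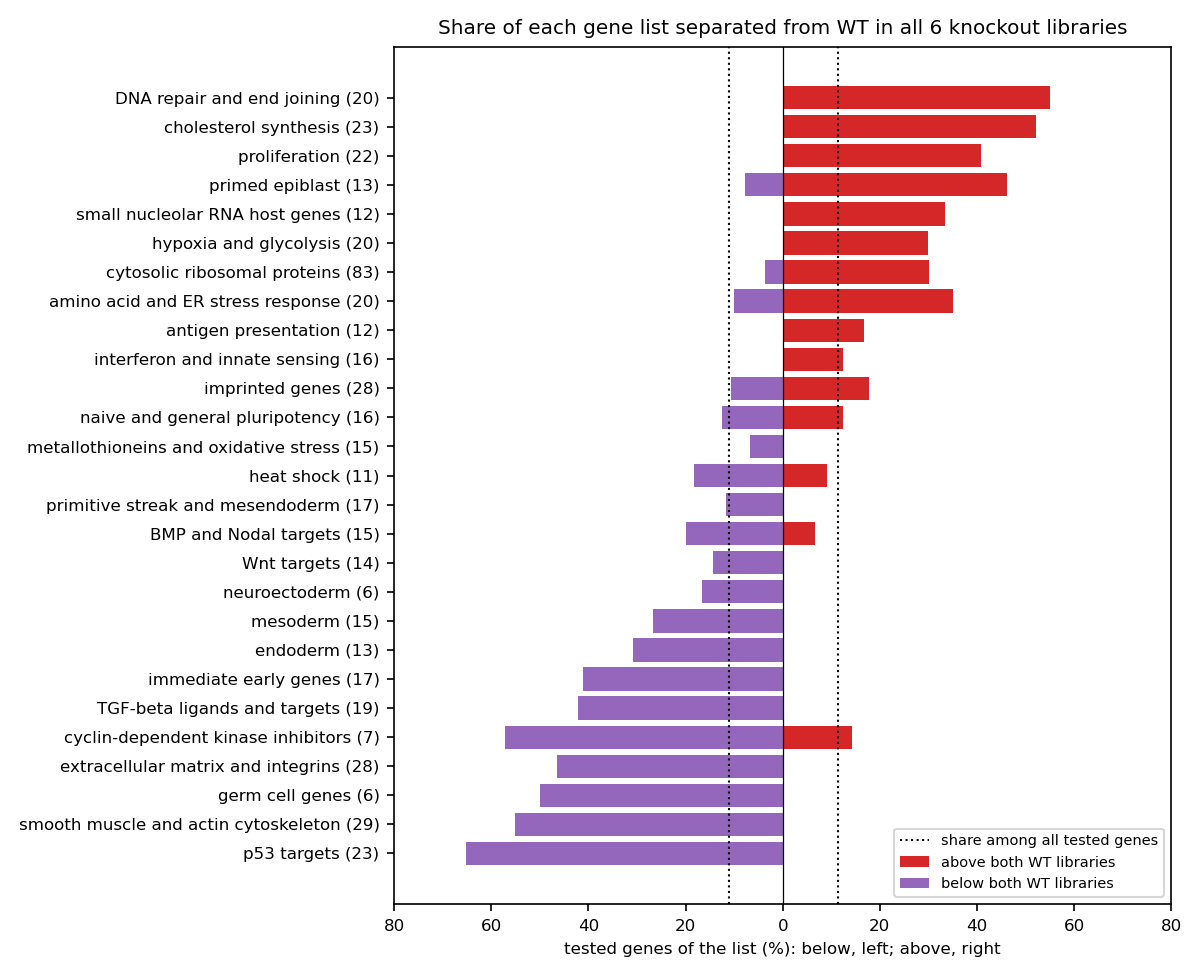
Share, in percent, of the tested genes of each list drawn (y axis, number tested in parentheses) that met the rule. Red bars, to the right, give genes with all 6 knockout libraries above both WT libraries. Purple bars, to the left, give genes with all 6 below both. Lists of cell type markers and the lists with the fewest tested genes, such as that of Hox genes, are not drawn. Dotted lines mark the shares among all 13188 tested genes. At the bottom, 15 of 23 p53 targets lie below WT and 0 above, and at the top 12 of 23 cholesterol genes and 11 of 20 DNA repair genes lie above and 0 below.

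Targets of p53 stood below WT in both edits. Of 23 tested, 15 were below in all 6 knockout libraries and 0 above, and 11 fell by limma. Cdkn1a, the p21 inhibitor that carries out the p53 arrest, stood at 130.4 and 131 FPKM in the WT libraries, 74.1, 81.1 and 76.6 in Evx1as KO and 102, 93.2 and 90.3 in the libraries labelled EVX1 KO. Mdm2, the ubiquitin ligase that p53 induces and that degrades p53, stood at 94.1 and 89.0 FPKM in the WT libraries, 46.3, 54.1 and 50.5 in Evx1as KO and 53.1, 56.0 and 58.9 in the libraries labelled EVX1 KO. Phlda3, a repressor of Akt signalling, stood at 192 and 185 FPKM in the WT libraries, 73.1, 96.6 and 90.2 in Evx1as KO and 142, 131 and 139 in the libraries labelled EVX1 KO. All knockout values of these 3 genes were well under both WT values, which were close to each other. For Mdm2 limma called no difference between the edits, while for Phlda3 and Cdkn1a EVX1 KO minus Evx1as KO was 0.67 and 0.30 on the log2 scale (limma adjusted p 0.00334 and 0.0242).

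The differences from WT by limma were -0.78 ± 0.083 (SE, log2 scale) for Mdm2, -0.79 ± 0.10 for Phlda3 and -0.60 ± 0.076 for Cdkn1a, with adjusted p-values of 0.0055, 0.009 and 0.00798. The apoptosis genes Perp and Pmaip1 also fell, from 104 and 122 and from 18.2 and 14.9 FPKM in WT to 51.7 to 76.7 and to 6.39 to 13.1. So did the kinase gene Plk2 (57.7 and 61.7 in WT, 25.3 to 48.6 in the knockouts), the stress sensor Sesn2 (43.3 and 42.4, 21.3 to 35.2), Ccng1 (60.2 and 63.2, 36.2 to 52.2), Btg2 (58.7 and 55.5, 37.1 to 54.7), Gtse1 (89.0 and 90.4, 63.8 to 76.2) and Lrdd, now named Pidd1 (21.4 and 21.0, 13.7 to 19.2). The death receptor genes Fas, Tnfrsf10b and Eda2r and the nuclease gene Aen were below WT in all 6 libraries without a call. Of the 8 p53 targets outside the shared set, Bbc3, Ddit4 and Trp53inp1 were at or above WT in some knockout libraries, as the map of levels shows. The median of the 23 genes was -0.54 in Evx1as KO and -0.43 in EVX1 KO, and -0.38 for the mean of both. The limma count was 6 to 11 without 1 of the knockout libraries, 0 without WT replicate 1 and 1 without WT replicate 2, which was Mdm2.

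Of 7 cyclin-dependent kinase inhibitor genes tested, 4 were below WT in all 6 knockout libraries, all 4 fell by limma, and 1 was above. Besides Cdkn1a, Cdkn2a and Cdkn2b, the fourth was Cdkn1c, the imprinted p57 inhibitor, at 31.4 and 25.6 FPKM in the WT libraries, 9.95, 12.0 and 10.2 in Evx1as KO and 12.1, 18.5 and 23.3 in the libraries labelled EVX1 KO. Cdkn3, a phosphatase gene of mitosis that the list holds by its name, was above WT without a call (6.98 and 7.48 in WT, 7.99 to 16 in the knockouts). Cdkn1b and Cdkn2d were in neither set. The 4 calls stood with any 1 knockout library left out, and 0 and 1 stood without WT replicate 1 and without WT replicate 2. Bulk RNA cannot tell fewer cells of a type from less RNA per cell.

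Genes of smooth muscle and the actin cytoskeleton were below WT in 16 of 29 tested cases and above in 0. Without the genes of chromosomes 1, 8 and 14, 13 of 21 were below. Acta1 lies on chromosome 8, where EVX1 KO replicates 1 and 2 stood low. Acta2, smooth muscle actin, stood at 115 and 189 FPKM in the WT libraries, 17.1, 33.1 and 26.4 in Evx1as KO and 32.5, 71.4 and 57.4 in the libraries labelled EVX1 KO. Acta1, skeletal muscle actin and an early target of serum response factor, stood at 648 and 398 FPKM in the WT libraries, 68.0, 158 and 81.3 in Evx1as KO and 91.7, 179 and 277 in the libraries labelled EVX1 KO. Csrp1, a LIM protein of actin filaments, stood at 418 and 445 FPKM in the WT libraries, 151, 193 and 154 in Evx1as KO and 243, 351 and 382 in the libraries labelled EVX1 KO. Evx1as KO was lowest for Csrp1 (EVX1 KO minus Evx1as KO 0.95 on the log2 scale, limma adjusted p 0.00564), while the edits overlapped for Acta1 and Acta2. Acta2 fell by 2.02 ± 0.32 (SE), Acta1 by 2.00 ± 0.42 and Csrp1 by 0.91 ± 0.17 in the mean of both edits, with limma adjusted p-values of 0.0135, 0.0224 and 0.0162.

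Further members that fell were the calponin relative Tagln (733 and 576 FPKM in WT, 303 to 498 in the knockouts), the actin crosslinker Actn1 (399 and 396, 196 to 306), the focal adhesion gene Zyx (203 and 229, 108 to 188), the tropomyosin Tpm2 (39.4 and 57.1, 24.97 to 35.2), Cald1, Lmod1, Actg2, Gsn and Myl6. Actg2 reached 1 FPKM only in the WT libraries, so its place below WT was fixed once the filter kept it. Flna, Cnn2, Tpm1 and Pdlim7 were below WT in all 6 knockout libraries without a call. Tagln2 (805 and 715 in WT) fell in the mean of both edits but was no shared gene, since the libraries labelled EVX1 KO held 689.6, 726 and 769. The limma count for the list was 9 to 17 without 1 of the knockout libraries, 0 without WT replicate 1 and 1 without WT replicate 2.

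The CArG box is the DNA element bound by serum response factor, which drives many of these genes. RefSeq promoters of 300 bases (GRCm38.p6, 250 before to 50 after the start) were at hand for 26 of the 29 genes, and the element was searched on both strands. It was found in 3 of the 14 shared genes and in 6 of the 12 others, and in 1.63% of all 32851 promoters. The promoters of the 3 shared genes with a match, Acta1, Cnn2 and Myl6, are shown with the CArG box in capitals, each read 5′ to 3′ along its gene. Acta1 lies at chr8:123894726-123895025 on the minus strand, Cnn2 at chr10:79988350-79988649 on the plus strand and Myl6 at chr10:128492960-128493259 on the minus strand.
Acta1: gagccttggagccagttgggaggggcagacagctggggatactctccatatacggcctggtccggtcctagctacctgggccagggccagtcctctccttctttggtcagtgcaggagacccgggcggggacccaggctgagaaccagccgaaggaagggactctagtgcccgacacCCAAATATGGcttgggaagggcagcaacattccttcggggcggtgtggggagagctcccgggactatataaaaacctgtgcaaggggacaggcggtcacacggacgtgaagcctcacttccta
Cnn2: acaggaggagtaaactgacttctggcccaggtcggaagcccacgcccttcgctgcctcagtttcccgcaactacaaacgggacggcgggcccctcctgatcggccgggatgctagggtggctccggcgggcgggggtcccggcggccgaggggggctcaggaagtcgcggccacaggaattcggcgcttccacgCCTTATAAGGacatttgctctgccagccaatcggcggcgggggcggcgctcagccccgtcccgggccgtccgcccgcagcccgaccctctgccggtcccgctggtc
Myl6: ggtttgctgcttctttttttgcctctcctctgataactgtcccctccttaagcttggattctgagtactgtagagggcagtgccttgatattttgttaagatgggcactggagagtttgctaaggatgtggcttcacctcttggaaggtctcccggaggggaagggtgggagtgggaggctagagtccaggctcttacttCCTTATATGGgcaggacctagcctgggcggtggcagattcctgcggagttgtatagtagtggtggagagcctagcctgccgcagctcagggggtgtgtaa
The matches span bases -73 to -64, -56 to -47 and -50 to -41 from the start. Myl6, the nonmuscle myosin light chain, stood at 1474 and 1490.0 FPKM in the WT libraries, 1080.0, 1072 and 962 in Evx1as KO and 1199, 1317 and 1280.3 in the libraries labelled EVX1 KO. Cnn2, a calponin of nonmuscle cells, stood at 309 and 386 FPKM in the WT libraries, 217, 279 and 238 in Evx1as KO and 231, 289 and 305 in the libraries labelled EVX1 KO. Both are far less separated from WT than Acta1, so genes with the same element differed widely in size of change.

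Extracellular matrix and integrin genes gave 13 of 28 below WT in all 6 knockout libraries and 0 above, and 11 of the 28 fell by limma. Without the genes of chromosomes 1, 8 and 14, 10 of 18 were below and 10 fell. The basement membrane collagen Col4a1 stood at 111 and 78.3 FPKM in the WT libraries, 25.2, 46.4 and 34.6 in Evx1as KO and 41.9, 55.8 and 59.2 in the libraries labelled EVX1 KO. Its partner Col4a2 stood at 81.8 and 53.4 FPKM in the WT libraries, 15.5, 31.8 and 24.2 in Evx1as KO and 28.4, 35.8 and 38.5 in the libraries labelled EVX1 KO. The intermediate filament gene Vim stood at 475 and 332 FPKM in the WT libraries, 140.4, 169 and 88.5 in Evx1as KO and 280.4, 209 and 177 in the libraries labelled EVX1 KO. In these 3 genes all knockout values lay below both WT values, with Evx1as KO mostly the lower edit. Itga3, Itga5, Timp2, Timp3, Sparc, Lamb1 and Lox fell as well, with WT at 130.1 and 147, 92.0 and 92.0, 13.98 and 14.1, 12.0 and 14.3, 411 and 414, 67.7 and 67.5 and 1.06 and 2.27 FPKM. Fibronectin, Fn1, fell in the mean of both edits but was no shared gene (869 and 670.0 in WT, 193, 373 and 231 in Evx1as KO, 768, 769.5 and 707 in the libraries labelled EVX1 KO). Lox reached 1 FPKM only in the WT libraries, so its place below WT was fixed once the filter kept it. The limma count for the list was 5 to 11 without 1 of the knockout libraries and 0 without either WT library.

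TGF-beta ligands and targets gave 8 of 19 below WT and 0 above, and 6 fell by limma. Tgfb2, a TGF-beta ligand, stood at 19.2 and 18.6 FPKM in the WT libraries, 3.57, 6.02 and 3.94 in Evx1as KO and 9.06, 10.6 and 11.3 in the libraries labelled EVX1 KO. The matricellular genes Ctgf (45.6 and 44.2 in WT, 18.8 to 33.8 in the knockouts), Cyr61 (324 and 294, 195 to 256) and Thbs1 (133 and 174, 79.2 to 121) fell in the mean of both edits, as did Edn1. Of 17 immediate early genes, which answer serum and stress within minutes, 7 were below WT in all 6 knockout libraries, 0 above, and 6 fell. Atf3 stood at 25.8 and 24.4 FPKM in the WT libraries, 6.94, 9.08 and 3.99 in Evx1as KO and 10.3, 16.1 and 20.1 in the libraries labelled EVX1 KO. Jun had 39.1 and 40.5 in WT and 22.6 to 30.2 in the knockouts, Dusp6, a phosphatase induced by ERK, 58.7 and 67.3 and 30.2 to 48.2, and Nr4a1 53.1 and 48.7 and 25.4 to 47.4. Ctgf and Cyr61 are on both lists. Without WT replicate 1 and without WT replicate 2 the limma counts were 0 and 2 for TGF-beta and 0 and 0 for immediate early genes. Leaving out a knockout library gave 2 to 8 immediate early calls.

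**Figure D3:**
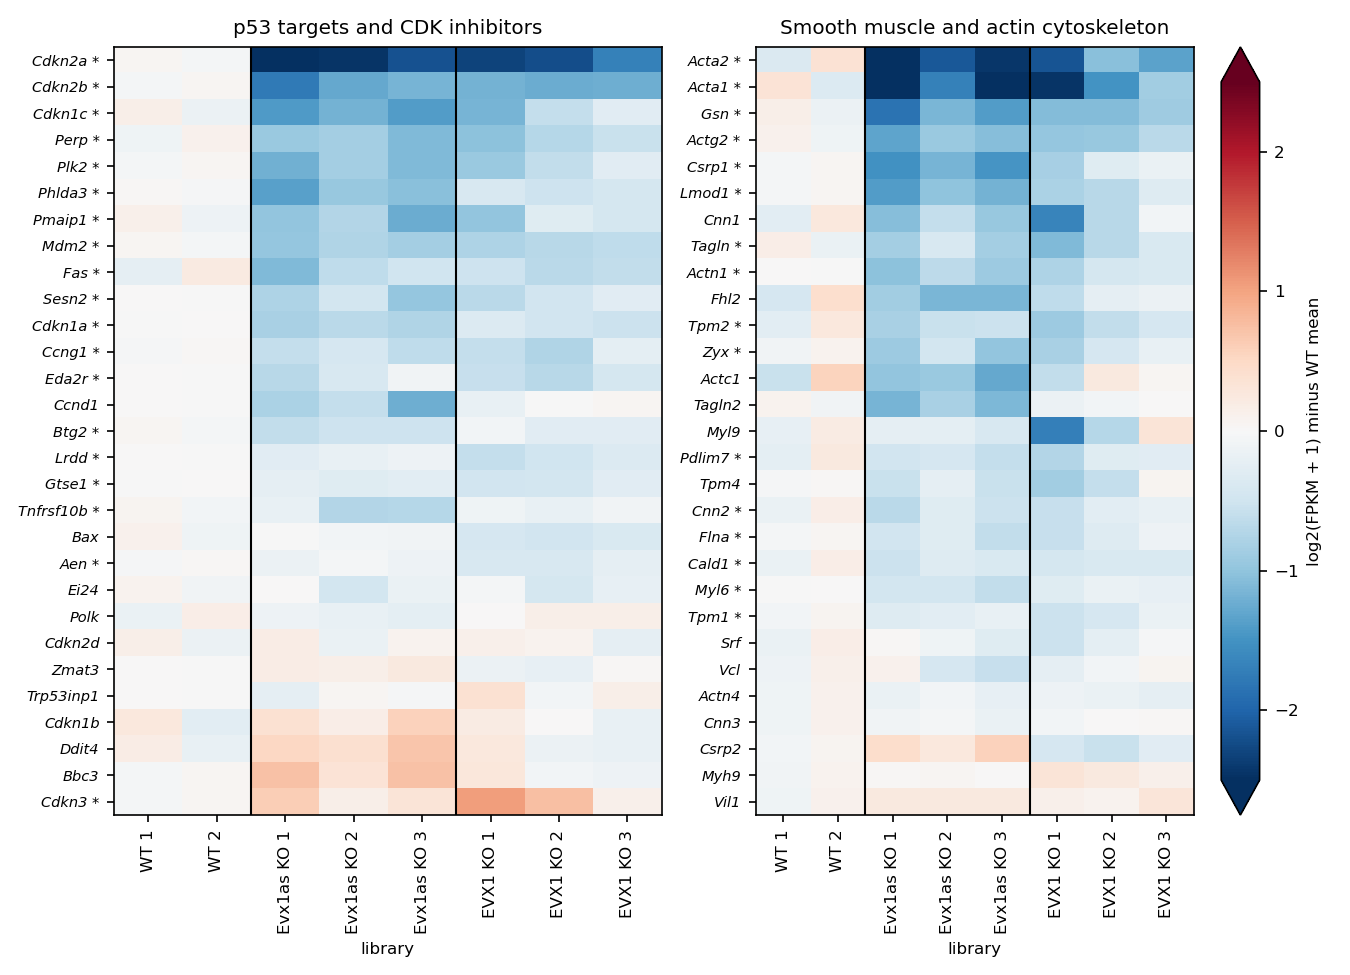
Levels per library (columns, in the order WT, Evx1as KO, EVX1 KO) of all tested p53 targets and cyclin-dependent kinase inhibitors (left) and smooth muscle and actin genes (right), as log2(FPKM + 1) minus the WT mean, blue below and red above. Asterisks mark shared genes. Cdkn2a and Cdkn2b, at the top left, and Acta2 and Acta1, at the top right, are among the darkest blue in both edits.

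Of 13 primed epiblast genes tested, 6 were above WT in all 6 knockout libraries and 1 (the claudin gene Cldn6) below. By limma 8 rose and 1 fell. The gene that fell was Lef1, a Wnt effector that was not shared, with 19.2 and 15.5 FPKM in WT and 4.24 to 16.3 in the knockouts. Those above included Otx2, Fgf5, Zic2, Zic5 and Dnmt3b, of which Otx2, Zic2 and Zic5 lie on chromosome 14. Without chromosomes 1, 8 and 14, 3 of 10 were above, 5 rose, and the median difference from WT was 0.49 in place of 0.80 (log2). Dnmt3b, the de novo DNA methyltransferase, stood at 48.2 and 60.8 FPKM in the WT libraries, 176, 193 and 203 in Evx1as KO and 94.3, 92.0 and 67.4 in the libraries labelled EVX1 KO. Dnmt3b was higher in every Evx1as KO library than in the libraries labelled EVX1 KO, and limma called this difference (-1.18 for EVX1 KO minus Evx1as KO, log2, adjusted p 0.00107). Foxd3 and Sox3 rose in the mean of both edits without being shared, as their high values were all in Evx1as KO (6.71, 5.89 and 5.81 and 27.0, 18.5 and 29.7 FPKM, against 0.117, 0.239 and 0.340 and 4.01, 2.43 and 2.70 in the libraries labelled EVX1 KO). The limma count was 7 to 9 without 1 of the knockout libraries, 3 without WT replicate 1 and 5 without WT replicate 2.

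Of 16 pluripotency genes tested, 2 were above WT (Nanog and the RNA-binding Lin28a, 91.2 and 101 FPKM in WT and 111 to 136 in the knockouts) and 2 below. Those below were the Kruppel-like factors Klf2 (14.3 and 10.3 in WT, 0.939 to 7.02 in the knockouts) and Klf4 (4.21 and 3.66, 1.02 to 2.55). All 4 were called by limma over all libraries. In all, 3 of the 16 rose and 3 fell. The counts of 2 above and 2 below are near the shares among all tested genes, 11.4% and 11%. Klf2 lies on chromosome 8, and without the genes of chromosomes 1, 8 and 14, 2 of 12 were above and 1 below. Klf2, Klf4 and Lin28a were not among the calls left without WT replicate 1, when 0 of the 16 were called. Without WT replicate 2, 2 were called higher and 0 lower.

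Cholesterol and fatty acid synthesis gave 12 of 23 genes above WT and 0 below, and 9 rose by limma. Hmgcs1, which makes HMG-CoA for the pathway, stood at 72.8 and 88.4 FPKM in the WT libraries, 123, 119 and 121 in Evx1as KO and 116, 107 and 112 in the libraries labelled EVX1 KO. Fdps, which makes farnesyl diphosphate, stood at 102 and 116 FPKM in the WT libraries, 183, 159 and 197 in Evx1as KO and 149, 137 and 152 in the libraries labelled EVX1 KO. Dhcr7, the last enzyme of cholesterol synthesis, stood at 14.2 and 17.8 FPKM in the WT libraries, 42.3, 28.7 and 36.5 in Evx1as KO and 29.1, 23.2 and 25.1 in the libraries labelled EVX1 KO. The edits were within each other's spread or close to it, and limma called no difference between them for these 3 genes. Insig1, a sterol-sensing regulator of the pathway, stood at 13.3 and 19.12 FPKM in the WT libraries, 24.8, 20.1 and 23.5 in Evx1as KO and 29.7, 28.7 and 28.1 in the libraries labelled EVX1 KO. Lss, Idi1, Nsdhl and Scd1 rose as well, and Sqle, Mvk, Srebf2 and Stard4 were above WT in all 6 knockout libraries without a call. Mvd rose in the mean of both edits but overlapped WT. The median of the 23 genes was 0.35 in Evx1as KO and 0.38 in EVX1 KO. The limma count was 7 to 10 without 1 of the knockout libraries, 1 without WT replicate 1 and 4 without WT replicate 2.

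The promoter of Hmgcs1 is shown because its sterol regulatory element, TCACNCCAC, is the sequence through which SREBP proteins act on this pathway. RefSeq promoters were at hand for 12 of the 23 genes, and the motif, searched on both strands, was found in 1 of the 8 shared genes, in 0 of the 4 others and in 1.24% of all 32851 promoters. Hmgcs1 lies at chr13:119690101-119690400 (GRCm38.p6) on the plus strand, and the match, in capitals, spans bases -137 to -129 from the start.
Hmgcs1: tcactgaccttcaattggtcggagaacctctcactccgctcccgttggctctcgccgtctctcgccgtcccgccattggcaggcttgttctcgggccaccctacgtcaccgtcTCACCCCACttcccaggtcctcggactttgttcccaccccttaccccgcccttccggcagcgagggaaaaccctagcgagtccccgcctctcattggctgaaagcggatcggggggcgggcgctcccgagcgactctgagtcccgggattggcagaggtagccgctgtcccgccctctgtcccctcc

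**Figure D4:**
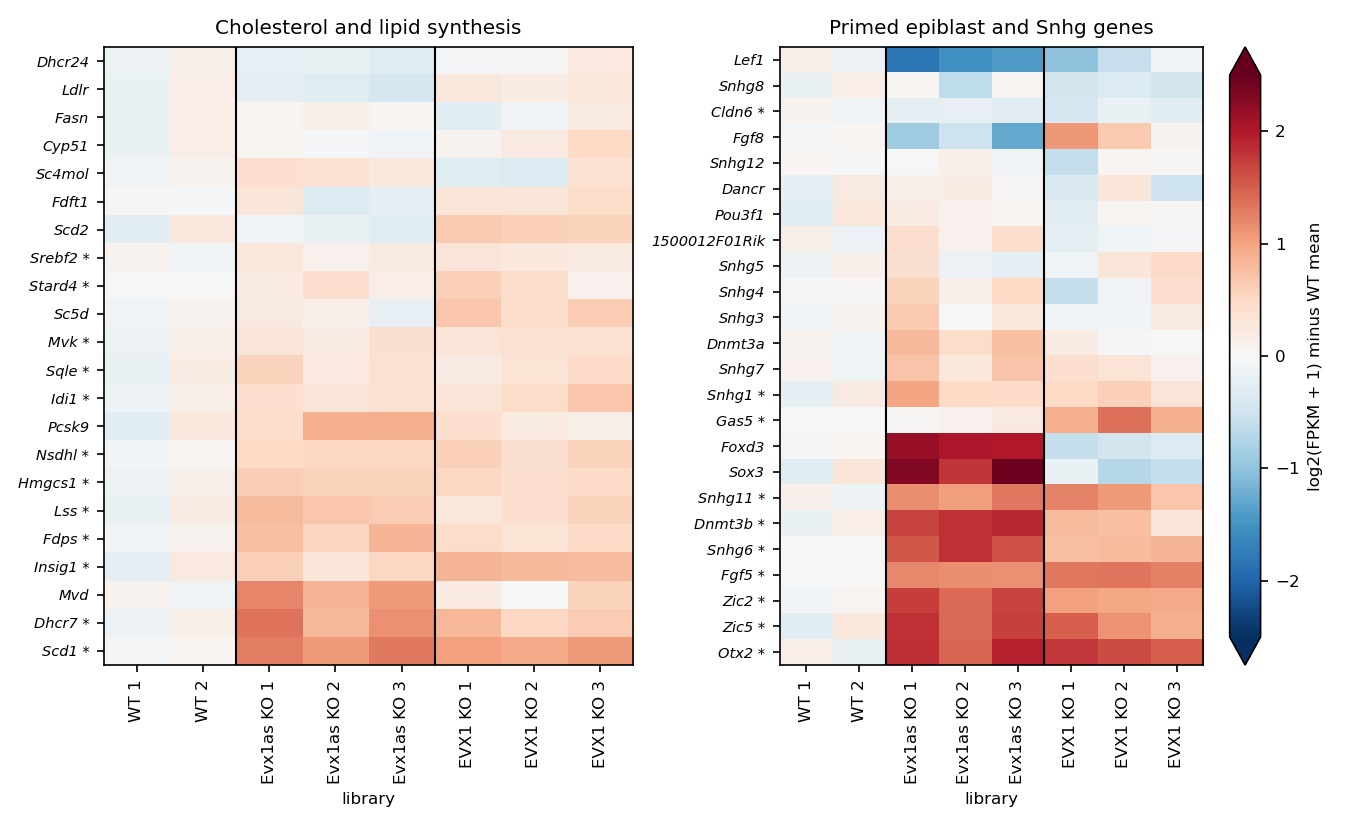
Levels per library (columns) of tested cholesterol and fatty acid genes (left) and of primed epiblast genes and small nucleolar RNA host genes (right), as log2(FPKM + 1) minus the WT mean, red above and blue below. Asterisks mark shared genes. Scd1 and Dhcr7 are red in all 6 knockout columns, while Foxd3 and Sox3 are red in Evx1as KO alone.

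Proliferation genes gave 9 of 22 above WT and 0 below, and 8 rose by limma. Bub1b, a kinase of the spindle checkpoint, stood at 34.1 and 37.1 FPKM in the WT libraries, 54.1, 48.9 and 56.5 in Evx1as KO and 48.3, 46.4 and 44.1 in the libraries labelled EVX1 KO. Ccnb1 had 49.5 and 56.4 in WT and 63.9 to 71.5 in the knockouts, Mki67 11.6 and 14.9 and 15.5 to 20.5, and the helicase subunit Mcm6 91.5 and 80.9 and 98.9 to 129.6. Ccnb2, Bub1 and Mcm4 also rose, and Top2a and Aurkb were above WT without a call. These gaps were narrow, as the values of Ccnb1 and Mki67 show. DNA repair genes gave 11 of 20 above WT and 0 below, with only 2 calls. Rad50, of the complex that senses broken DNA ends, stood at 11.7 and 11.7 FPKM in the WT libraries, 17.6, 19.05 and 19.5 in Evx1as KO and 17.5, 14.9 and 16.7 in the libraries labelled EVX1 KO. Brca2 stood at 3.01 and 3.27 FPKM in the WT libraries, 5.11, 5.59 and 5.26 in Evx1as KO and 3.91, 3.69 and 4.14 in the libraries labelled EVX1 KO. Of the uncalled 9, Atr had 0.559 and 0.638 in WT and 0.859 to 1.15 in the knockouts and Parp1 103 and 101 and 107 to 135. Atr was under 1 FPKM in both WT libraries, so the filter kept it only through knockout libraries. The median was 0.21 in Evx1as KO and 0.18 in EVX1 KO. Without WT replicate 1 and without WT replicate 2 no gene of either list was called, and without 1 of the knockout libraries the proliferation count was 2 to 9.

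Of 83 ribosomal protein genes, 25 were above WT in all 6 knockout libraries and 3 below, and 27 rose by limma. Rpl7 stood at 1105 and 1093 FPKM in the WT libraries, 1867, 1742 and 1843 in Evx1as KO and 1585, 1601 and 1749.8 in the libraries labelled EVX1 KO. Rps4x stood at 481 and 559.8 FPKM in the WT libraries, 912, 835 and 872 in Evx1as KO and 767, 775 and 805 in the libraries labelled EVX1 KO. Rps27l, a ribosomal protein paralogue that p53 is known to induce, was above WT as well, at 110.1 and 125 FPKM in the WT libraries, 199, 196 and 182 in Evx1as KO and 189.7, 239 and 279.5 in the libraries labelled EVX1 KO. Between the edits 22.0% of all tested genes differed by limma. Most of the family was higher in Evx1as KO: 63 of the 83 differed between the edits by limma, 62 of them higher in Evx1as KO. The exception was Rpl39, at 22.8 and 21.7 FPKM in the WT libraries, 35.2, 35.9 and 34.6 in Evx1as KO and 64.3, 58.3 and 130.4 in the libraries labelled EVX1 KO. The family median was 0.44 in Evx1as KO and 0.02 in EVX1 KO. Near-identical pseudogene copies make single ribosomal protein values uncertain. The limma count was 13 to 41 without 1 of the knockout libraries, 0 without WT replicate 1 and 2 without WT replicate 2.

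Of 12 small nucleolar RNA host genes, 4 were above WT and 0 below, and 3 rose. Without chromosomes 1, 8 and 14, 2 of 10 were above and 1 rose. Snhg11 stood at 3.42 and 2.75 FPKM in the WT libraries, 8.11, 7.41 and 9.13 in Evx1as KO and 8.67, 7.56 and 5.58 in the libraries labelled EVX1 KO. Gas5 stood at 4.80 and 4.85 FPKM in the WT libraries, 4.91, 5.26 and 5.79 in Evx1as KO and 10, 14.1 and 9.73 in the libraries labelled EVX1 KO. Gas5 was barely above WT in Evx1as KO and well above it in the libraries labelled EVX1 KO, the reverse of Snhg6, and the edits differed by 0.94 (log2; limma adjusted p 0.00297). Of 20 hypoxia and glycolysis genes, 6 were above WT, 0 below, and 5 rose. Vegfa, the angiogenic growth factor, stood at 5.86 and 7.29 FPKM in the WT libraries, 15.5, 11.1 and 14.5 in Evx1as KO and 17.8, 16.2 and 12.8 in the libraries labelled EVX1 KO. Pdk1, a pyruvate dehydrogenase kinase, stood at 5.18 and 5.34 FPKM in the WT libraries, 17.9, 13.0 and 15.8 in Evx1as KO and 13.7, 8.77 and 6.30 in the libraries labelled EVX1 KO. Pfkl had 66.0 and 64.4 in WT and 69.1 to 134 in the knockouts, and Ldha 668 and 606 and 741 to 868. Without WT replicate 1 and without WT replicate 2, the limma counts were 1 and 1 for host genes and 0 and 0 for hypoxia and glycolysis, and without 1 of the knockout libraries the latter was 2 to 9.

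Genes of the amino acid and ER stress response divided: 7 of 20 were above WT and 2 below, with 5 rises and 1 fall by limma. The members above included amino acid makers and carriers. Slc7a3, an arginine transporter, stood at 14.5 and 15.8 FPKM in the WT libraries, 55.5, 48.9 and 51.3 in Evx1as KO and 21.3, 26.0 and 26.5 in the libraries labelled EVX1 KO. Asns, asparagine synthetase, stood at 48.4 and 56.3 FPKM in the WT libraries, 76.2, 78.3 and 66.4 in Evx1as KO and 84.2, 88.0 and 89.5 in the libraries labelled EVX1 KO. Psat1 and Phgdh, enzymes of serine synthesis, had 34.8 and 40.9 and 93.7 and 80.3 in WT and 49.7 to 73.8 and 97.1 to 127 in the knockouts, and the pseudokinase gene Trib3 had 2.42 and 2.92 and 3.76 to 6.70. The members below were Sesn2 and the stress factor Ddit3 (18.3 and 12.9 in WT, 6.86 to 12.3 in the knockouts, not called). Without WT replicate 1 and without WT replicate 2, 0 and 2 of the rises were called, and 2 to 6 without 1 of the knockout libraries.

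Of 17 streak genes, 2 were below WT in all 6 knockout libraries and 0 above, against the background of 11% and 11.4%. By limma 22.0% of all tested genes differed between the edits. Of the 15 streak genes that did, all 15 were higher in the libraries labelled EVX1 KO. The median difference from WT was -1.70 in Evx1as KO and 0.21 in EVX1 KO. The shared streak genes were Wnt3, a Wnt ligand at 57.3 and 58.5 FPKM in the WT libraries, 14.2, 25.5 and 13.98 in Evx1as KO and 51.3, 57.1 and 49.8 in the libraries labelled EVX1 KO, and Nkx1-2, at 8.88 and 6.78 FPKM in the WT libraries, 0.262, 1.65 and 0.540 in Evx1as KO and 5.13, 4.57 and 5.33 in the libraries labelled EVX1 KO. For Wnt3 EVX1 KO replicate 2 nearly reached the lower WT library. Of 15 mesoderm genes, 4 were below WT: Msgn1, the Notch ligand genes Dll1 and Dll3, and Meis1. Dll3 stood at 9.74 and 10.02 FPKM in the WT libraries, 4.47, 3.36 and 3.68 in Evx1as KO and 6.39, 7.40 and 8.70 in the libraries labelled EVX1 KO. Of 13 endoderm genes, 4 were below, and these were the matrix genes Col4a1, Col4a2, Lamb1 and Sparc. Neither the mesoderm nor the endoderm list held a shared gene above WT. The mesoderm median was -1.19 in Evx1as KO and -0.04 in EVX1 KO. Of the 15 mesoderm genes 11 differed between the edits by limma, 10 of them higher in the libraries labelled EVX1 KO. The endoderm medians were -0.57 and 0.36, and 7 of the 13 differed, all 7 higher in the libraries labelled EVX1 KO. Without chromosomes 1, 8 and 14, the endoderm count was 2 of 8.

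Of 14 Wnt targets, Axin2 (31.7 and 32.3 in WT, 8.79 to 27.5 in the knockouts) and Cdx1 (5.28 and 6.74, 0.861 to 3.95) were below WT. This count of 2 of 14 is near the background of 11%. The median of the Wnt targets was -1.12 in Evx1as KO and -0.12 in EVX1 KO. Between the edits 9 of the 14 differed by limma, against 22.0% of all tested genes. All 9 were higher in the libraries labelled EVX1 KO. Of 15 BMP and Nodal targets, 3 were below, Id1, Id3 and Smad7, and 1 above, the Nodal inhibitor Lefty1. Id3 stood at 72.3 and 53.3 FPKM in the WT libraries, 23.3, 25.3 and 23.4 in Evx1as KO and 38.5, 46.8 and 48.9 in the libraries labelled EVX1 KO. Lefty1 stood at 13.5 and 20.7 FPKM in the WT libraries, 32.7, 23.5 and 33.3 in Evx1as KO and 57.0, 37.9 and 32.2 in the libraries labelled EVX1 KO. Hoxb1 and Hoxb9 were below WT among 3 Hox genes tested, at 4.24 and 1.55 and 2.32 and 1.78 in WT and 0 to 0.654 and 0.0527 to 0.690 in the knockouts. Both reached 1 FPKM only in the WT libraries, so their place below WT was fixed once the filter kept them. Of 27 Hox genes listed, only these 3 were kept. Of 6 neuroectoderm genes only Ncam1 was shared, below WT (2.64 and 1.93 in WT, 0.975 to 1.84 in the knockouts) and without a call.

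Imprinted genes, expressed from 1 parental allele, gave 5 of 28 above WT and 3 below, against a background of 11.4% and 11%. Grb10, a growth inhibitor, stood at 49.4 and 49.2 FPKM in the WT libraries, 96.3, 79.8 and 83.0 in Evx1as KO and 68.7, 66.1 and 66.9 in the libraries labelled EVX1 KO. Meg3 and Rian, noncoding RNAs of the same cluster, had 101 and 87.5 and 38.9 and 34.3 in WT and 103 to 152 and 42.4 to 59.9 in the knockouts, and Copg2 3.48 and 2.94 and 5.02 to 7.54. Cdkn1c, Ndn and Impact were below WT. Of 16 interferon genes, 2 were above WT (Bst2 and Stat2) and of 12 antigen presentation genes 2 (H2-K1 and Psmb9). Bst2, an antiviral membrane protein, stood at 101 and 70.0 FPKM in the WT libraries, 237, 202 and 268 in Evx1as KO and 151, 125 and 103 in the libraries labelled EVX1 KO. Of 11 heat shock genes, Hspa1a (4.16 and 5.59 in WT, 1.38 to 3.03 in the knockouts) and Hspa1b (9.66 and 10.9, 1.87 to 7.50) were below WT and Hsp90ab1 above. Of 15 oxidative stress genes the only one was Gpx1, glutathione peroxidase, at 534 and 511 FPKM in the WT libraries, 287, 302 and 257 in Evx1as KO and 313, 333 and 347 in the libraries labelled EVX1 KO. Germ cell genes gave 3 of 6 below WT (Mael, Tex19.1 and Rpl10l, the highest at 1.58 and 2.38 FPKM in WT). At such levels the filter can keep a gene through its WT values alone. Neither of the 2 tested genes of the 2-cell-like state was shared.

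Markers of other cell types moved with some of these lists. Summed FPKM of 11 fibroblast or feeder markers was 882 and 813 in WT and 367 to 594 in the knockouts. Of the 8 tested, 4 were below WT, among them Acta2 and Tagln, which made up most of the sum and are on the smooth muscle list. The others below were Col3a1 (1.37 and 2.24 in WT, 0.335 to 1.08 in the knockouts) and Fbn1 (2.55 and 3.26, 1.12 to 2.21), both without a call. Other members did not follow: Mmp2 was at 13.3 and 12.2 FPKM in the WT libraries, 31.2, 22.1 and 32.8 in Evx1as KO and 11.2, 9.71 and 13.5 in the libraries labelled EVX1 KO, and Thy1 was at 3.00 and 6.17 in WT and 2.39 to 9.23 in the knockouts. The fibroblast collagen Col1a1 was at 9.99 and 20.4 in WT and 3.58 to 17.5 in the knockouts, and Lum and Postn were listed at no more than 0.131 and 0.299 in any library. Summed FPKM of 12 trophoblast markers was 3242 and 2698 in WT and 909 to 2319 in the knockouts. Krt8 and Krt18 made up most of this sum in every library. The keratins Krt8 (1686 and 1385 in WT, 485 to 1261 in the knockouts), Krt18 and Krt7 and the factor Gata3 were below WT in all 6, while Tpbpa was listed at 0 in all libraries and Elf5 at no more than 0.0674. Eomes went the other way in one edit, at 42.7 and 46.6 FPKM in the WT libraries, 13.4, 20.7 and 6.28 in Evx1as KO and 52.8, 69.6 and 74.8 in the libraries labelled EVX1 KO. Hand1 stood at 15.99 and 9.14 FPKM in the WT libraries, 1.66, 2.81 and 3.87 in Evx1as KO and 9.84, 21.9 and 13.3 in the libraries labelled EVX1 KO, and Tfap2c at 3.51 and 5.89 FPKM in the WT libraries, 1.71, 3.70 and 1.60 in Evx1as KO and 5.35, 7.19 and 7.35 in the libraries labelled EVX1 KO. Endothelial and blood markers summed to 16.4 and 9.86 in WT, 2.47 to 3.34 in Evx1as KO and 8.64 to 15.5 in EVX1 KO. Of these markers Gata2 was below WT. Cardiac markers summed to 33.3 and 41.4 in WT, 15.1 to 17.6 in Evx1as KO and 29.7 to 52.2 in EVX1 KO. No cardiac marker was shared. Embryonic stem cell markers summed to 488 and 621 in WT and to 1015, 858 and 911 in Evx1as KO. The libraries labelled EVX1 KO, at 594, 614 and 635, overlapped WT. Of the 7 markers only Nanog was shared. Pou5f1 was at 308 and 328 in WT and 302 to 458 in the knockouts. Utf1 was at 63.7 and 132 in WT, 218 to 294 in Evx1as KO and 62.1 to 78.4 in EVX1 KO. Zfp42 (16.7 and 13.1 in WT, 8.34 to 14.5 in the knockouts) and Dppa4 (23.5 and 33.4, 17.8 to 23.7) did not rise. The part of other cells in the matrix, actin and TGF-beta results was not tested.

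Shared genes were spread unevenly over the chromosomes, leaving out chromosome Y with 2 tested genes and none shared. The share above WT was 3.85% on chromosome 8 and 6.77% on chromosome 14, the lowest, and 15.3% on chromosome 1 and 14.6% on chromosome X, the highest. The share below WT was 5.34% on chromosome 1, 5.86% on X and 6.77% on chromosome 14, and reached 14.7% on chromosome 5. Chromosomes 8 and 14 are those on which some knockout libraries stood low. For chromosome 1, the median centred level was 0.12 to 0.14 (log2) in the libraries labelled EVX1 KO, -0.10 to -0.086 in Evx1as KO and 0.024 and -0.10 in WT. Without the genes of chromosomes 1, 8 and 14, 1332 genes were above WT and 1305 below. Of the genes with the widest gaps, 9 of 15 above and 14 of 15 below lie on other chromosomes.

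**Figure D5:**
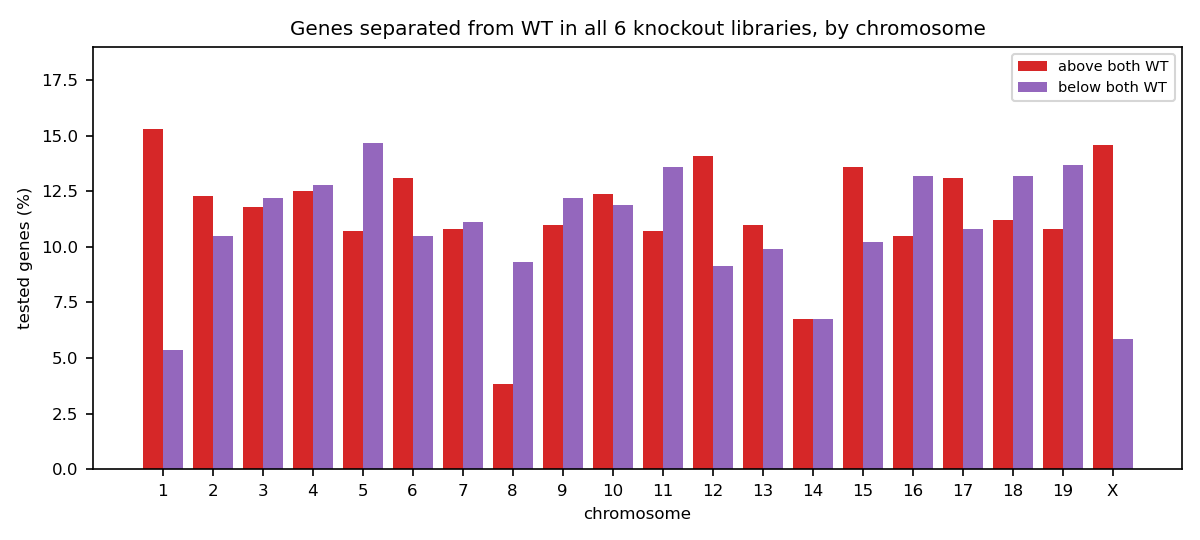
Share of tested genes on each chromosome but Y (x axis) with all 6 knockout libraries above both WT libraries (red) or below both (purple), in percent. The red bars of chromosomes 8 (3.85%) and 14 (6.77%) and the purple bars of chromosomes 1 (5.34%) and X (5.86%) are the lowest of their colours among those drawn.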

How the data were processed

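RNA of 8 samples was sequenced from TruSeq Stranded mRNA libraries, per the labels' protocols. The authors deposited 1 table of FPKM for all libraries. CASAVA, TopHat2 2.0.11 and the builds mm10 and mm9 are named without roles in the submitters' processing notes. How FPKM was computed, with which annotation and with which strand setting, was not given in the sources used here. Positions in the table do not match GRCm38 genes, and no mm9 annotation was used here.

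The table had 45772 lines, 3527 of them blank, and symbols on several lines (2660) had the same values on each and were used once. A gene was kept if it reached 1 FPKM in 2 or more libraries (13188, of which 849 are XLOC identifiers without a name). Genes that reached it on 1 side alone, WT or knockout, were kept through the side where they were high. Log2(FPKM + 1) was fitted with 1 mean per group in limma 3.58.1 (R 4.3.3; intensity trend, two-sided, Benjamini-Hochberg over all genes kept), and adjusted p under 0.05 was a call. Fold changes on this scale understate those of low genes. Contrasts were the mean of both knockout groups minus WT, and EVX1 KO minus Evx1as KO. Scripts were tested on simulated data. Python 3.11.15, pandas 2.3.3, numpy 2.4.6 and matplotlib 3.10.9 were used for the rest.

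Named genes were Evx1, Evx1as, the 15 called shared genes each way with the widest gap (passing over 2 above and 1 below without a gene name), the shared genes of each list with up to 4 others, and 3 genes on each side of the edge of the rule each way. The text gives a selection, and some named genes are not reported here. Terf1 and Ctsd (called with all knockouts as 1 group), the first Ywhaz line, the line named H19, and Bbc3, Cdkn1b, Cdkn2d, Ddit4, Fn1, Foxd3, Mvd, Tagln2 and Trp53inp1, list genes outside the shared set, were added after their values were seen. The rule, the lists and the motifs were chosen with earlier results of these data known. Alternatives covered scaling, filter, pseudocount, weights, block, 1 knockout group, gap width, each library left out and, chosen after seeing the data, chromosomes 1, 8 and 14 left out.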

Additional observations from a re-analysis of the deposited data

Results flagged for a closer look

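Among the genes with the widest gaps, and for the targeted transcripts, 9 differed between the edits by limma in the contrast of EVX1 KO minus Evx1as KO. On the log2(FPKM + 1) scale the difference was -0.63 for Zic2, -0.85 for Snhg6, -0.93 for Gstt1 and -0.55 for Eml1, which were above WT in both edits and highest in Evx1as KO. It was 1.43 for Msgn1, 1.12 for Gadd45g and 0.95 for Edn1, which were below WT in both edits and lowest in Evx1as KO. The difference was 3.19 for Evx1 and 2.89 for Evx1as (5730457N03Rik), which were not shared.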

How the results depend on the processing

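No named gene with a call changed direction under an alternative. The medians of 7 of the 34 lists turned sign under at least 1, among them naive and general pluripotency (-0.14, and 0.24 without chromosomes 1, 8 and 14), interferon (-0.13, and 0.11 without WT replicate 1), antigen presentation (0.036, and -0.13 without WT replicate 2) and heat shock (0.0078, and -0.017 with median-ratio scaling). The counts of shared genes moved with the width of the gap and with the WT libraries: a gap of at least 1.5-fold left 25 above and 39 below, and leaving out 1 library gave 1605 to 2738 above and 1535 to 2514 below, the highest values being those with 1 WT library. The limma counts of 827 higher and 741 lower were 6 and 8 with the 6 knockout libraries as 1 group, which counts the difference between the edits as spread. They were 294 and 306 with no filter and 361 and 315 with the replicate number as a replicate block. With 1 library left out they ranged over 10 to 1006 and 2 to 875. Same-numbered libraries correlated by -0.099 to 0.076 in their deviations from group means, and differently numbered ones by -0.159 to 0.161. With so few libraries, these values cannot decide whether the numbers pair the samples. The 496 shared genes that differed between the edits became 1045 with array weights, 325 with no filter and 197 to 774 with 1 library left out. The cause of these moves was not tested. Counts stayed within 1.5 times under median-ratio scaling (1329 above and 1688 below), a filter of 5 FPKM, a pseudocount of 0.1 and without chromosomes 1, 8 and 14. Of 160 named genes with a call, 12 were still called with the knockouts as 1 group. Absolute depth is unknown, so no counting error could be given for low values.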
